A study of Homo sapiens with 15 samples.

Results

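Long H3K27ac domains are stretches of chromatin of 10 kb or more called as 1 peak of acetylation of histone H3 at lysine 27. This acetylation is a mark of active promoters and enhancers. Whether the mark runs without a break inside such a peak was not measured. Of the 62195 H3K27ac consensus peaks in the count table, 1276 had a length of at least 10000 bp and were taken as long domains, which was 2.05% of the peaks. The lengths, taken from the table itself, ranged from 10000 to 50094 bp with a median of 12904 bp. The counts per library did not enter this choice. The lengths come from peaks called on reads pooled over the lines, so that the H3K27ac signal itself helped to set them. The density of the domains and their changes between lines are thus not independent of the choice. The domains were followed by chromatin immunoprecipitation and sequencing (ChIP-seq) in MDA-MB-231, a triple-negative, claudin-low human breast cancer cell line (referred to as Par), in LM2, a sub-population of it selected in vivo for growth in the lung, and in BrM2, a sub-population selected for growth in the brain. All 3 lines were untreated monolayer cultures, kept in medium with 10% serum for 3 days, and each line had 2 replicate libraries for H3K27ac and 2 for H3K4me3, a mark of active promoters. LM2 and BrM2 are each 1 selected sub-population, so that the contrasts compare these populations and not lung and brain metastases in general.

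Enhancers are stretches of DNA that bind transcription factors and raise the transcription of genes at a distance, and acetylation at lysine 27 marks those in use. Where many enhancers lie close together, the mark fuses into one broad domain, often called a stretch enhancer or super-enhancer, and such domains are known to sit near genes that define a cell's identity. In mesenchymal breast cancer cells the AP-1 factors (FOS and JUN proteins) and the TEAD factors with their co-activators YAP and TAZ are known occupants of enhancers. A domain is named here by the protein-coding gene with the nearest transcription start site (TSS). This is a name by distance, and no link between domain and gene was measured.

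Sequence was examined first, since it does not depend on the libraries. In GRCh37 (hg19), the build of the count table, the 7-letter AP-1 motif TGANTCA, which reads alike on both strands, occurred 0.434 times per kb in the domains, 0.442 times per kb in the 60919 shorter peaks and 0.33 times per kb in stretches of the same lengths 50 kb upstream of the domains. The same letters in reverse order, ACTNAGT, occurred 0.243, 0.227 and 0.227 times per kb. The TEAD motif GGAATG, searched on both strands, occurred 0.655 times per kb in the domains, 0.621 in the shorter peaks and 0.591 upstream. The density of the AP-1 motif was thus close in long domains and short peaks and higher in both than upstream, which was not tested. A match is a description of the letters and not a measured binding site. The median domain held 0.42 AP-1 motifs per kb and 9 of the 1276 domains held none, while the 391 domains with a TSS had a median of 0.372 and the 885 without one a median of 0.448. Of the 150-base windows laid end to end, 5.94% of those in domains and 6.09% of those in shorter peaks held at least 1 motif, and 0.0161% and 0.0188% held at least 3.

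The windows below show, in hg19 on the plus strand and 5′ to 3′, the 150 bases with the most AP-1 motifs in the domains that moved most against Par, 2 upwards and 2 downwards in LM2 and in BrM2 (the domain near PRAG1, which fell most in BrM2, is left out, and the next 2 are given). Capitals mark TGANTCA. They are shown because these domains are among those that differ most between the lines. None of the 6 windows touched an exon of a protein-coding transcript.
PCBP3 (chr21:47295032-47295181): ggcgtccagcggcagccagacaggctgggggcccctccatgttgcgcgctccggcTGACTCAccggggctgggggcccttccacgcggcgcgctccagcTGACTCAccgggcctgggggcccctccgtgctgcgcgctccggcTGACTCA
METRNL (chr17:81142851-81143000): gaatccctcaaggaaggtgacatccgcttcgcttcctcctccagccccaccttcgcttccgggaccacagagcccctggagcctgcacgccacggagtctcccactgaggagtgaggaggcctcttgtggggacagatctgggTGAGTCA
ARHGAP5 (chr14:32473599-32473748): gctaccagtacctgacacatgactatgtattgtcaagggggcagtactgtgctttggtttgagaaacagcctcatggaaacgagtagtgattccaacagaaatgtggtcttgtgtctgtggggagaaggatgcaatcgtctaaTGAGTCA
WWC3 (chrX:9977642-9977791): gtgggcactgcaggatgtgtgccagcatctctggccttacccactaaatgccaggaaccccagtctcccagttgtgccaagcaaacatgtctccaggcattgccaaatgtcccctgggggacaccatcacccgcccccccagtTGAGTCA
SLC30A10 (chr1:219961510-219961659): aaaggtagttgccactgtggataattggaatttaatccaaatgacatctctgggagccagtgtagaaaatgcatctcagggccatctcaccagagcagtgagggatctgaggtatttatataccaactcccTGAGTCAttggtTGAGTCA
BOD1L1 (chr4:13981865-13982014): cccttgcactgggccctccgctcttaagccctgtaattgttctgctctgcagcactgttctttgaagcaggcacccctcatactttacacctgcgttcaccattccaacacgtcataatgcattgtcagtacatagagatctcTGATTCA
The PCBP3 window held 3 motifs, the SLC30A10 window held 2 that lay a few bases apart, and the other windows held 1. The 3 motifs at PCBP3 lay in near-identical stretches repeated one after another, so that they are not 3 independent matches. The METRNL window lay 52 kb from the end of chromosome 17 and the PCBP3 window 835 kb from the end of chromosome 21. Over whole domains the density was 0.823 motifs per kb at METRNL and 0.862 at ARHGAP5, which moved in opposite directions in LM2. It was lower at the others, with 0.437 at PCBP3, 0.264 at WWC3, 0.617 at SLC30A10 and 0.556 at BOD1L1. The median density was 0.418 in the domains called higher in LM2, 0.387 in those called lower, 0.47 in those called higher in BrM2 and 0.463 in those called lower.

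A few facts of the whole series bear on what follows. Total counts in H3K27ac peaks ranged from 1994996 in BrM2 replicate 2 to 6450028 in LM2 replicate 1, and the total counts in H3K4me3 peaks from 3489607 to 9839629. The median raw count of a domain ranged over the libraries from 215 to 668, and the lowest count of any domain in any library was 30. The 5 genes expected to be active in this line (VIM, CD44, EGFR, AXL and CAV1) all had both marks at their start. Luminal genes also carried them, 8 of 9 with each mark. Their median H3K4me3 density was 58.8 normalized counts per kb, with GATA3, which had no such peak, taken as 0, against 163 for the expected genes. The sets overlapped, since EPCAM (126) and FOXA1 (118) lay above CD44 (109). For H3K27ac, CLDN7 (58.1) and EPCAM (53.4) lay above VIM (42.4) and CD44 (32.1). Of 10 blood and endothelial genes found in the annotation, 2 had each mark at their start. Counts were not divided by an input sample, so that a change in the number of DNA copies and a change in the mark per copy cannot be told apart. Likewise a larger share of marked cells and more of the mark in each cell cannot be told apart.

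The long domains were a small share of peaks but held much of the mark. They covered 18.7 Mb, 13.3% of all H3K27ac peak bases, and held 16.4% and 16.2% of the counts of the Par libraries, 15.9% and 15.6% of those of LM2 and 16.6% and 16.3% of those of BrM2. The LM2 libraries lay below the other 4. Per kb of sequence, domains held 1.2 to 1.3 times as many counts as shorter peaks in each of the 6 libraries, and the median density was 29.9 normalized counts per kb (counts divided by the library's size factor, mean of 6 libraries) against 18.3. Density rose little with length (Pearson r = 0.172, Spearman rho = 0.13 on the log2 scale, over 1276 domains).

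By position, 391 domains (30.6%) contained the TSS of a protein-coding gene, against 19.3% of shorter peaks, and 51 of them contained the starts of at least 2 genes. A further 480 lay in a gene body, 394 were intergenic and 11 lay within 2 kb of a TSS. The share more than 100 kb from any TSS was 18.4% for domains and 21.6% for shorter peaks. H3K4me3 peaks overlapped 808 domains (63.3%) and 30.2% of shorter peaks. In the domains that had one, H3K4me3 covered a median of 18.1% of the bases, against 80.9% in shorter peaks with one, so that most of a long domain lay outside the promoter mark. At least 2 separate H3K4me3 peaks were found in 328 domains. Just inside the length limit lay domains named for PTPRS (10000 bp) and THUMPD2 (10009 bp), with 35.2 and 20.4 normalized counts per kb, and just outside it peaks named for IRS2 (9998 bp), RAMP1 (9995 bp) and NTMT1 (9993 bp), with 24.2, 37.8 and 16.2.

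**Figure D1:**
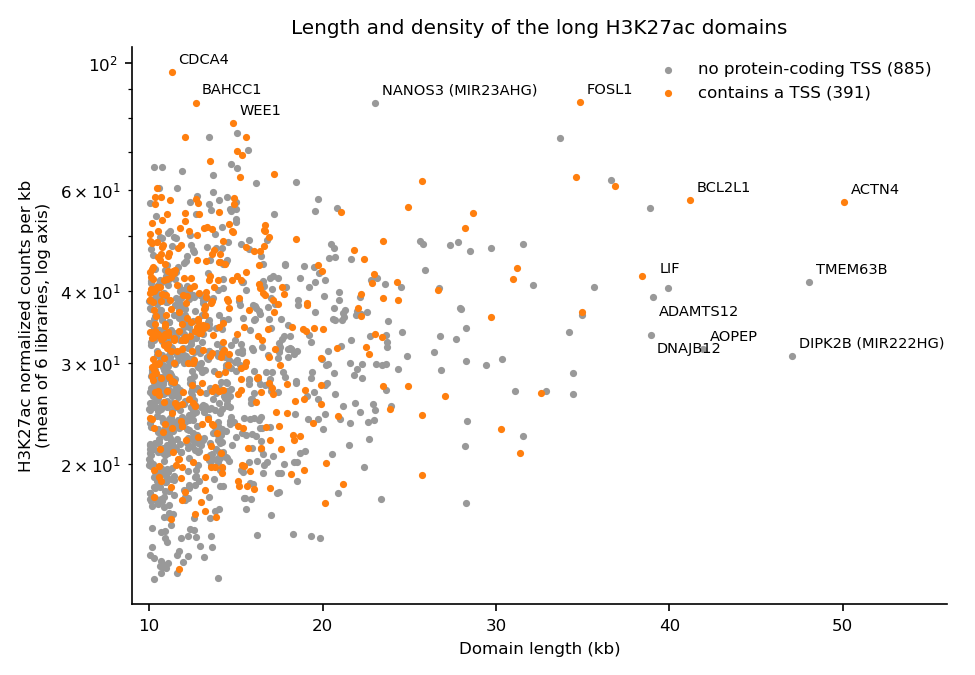
Each point is 1 of the 1276 long domains, with its length in kb on the x axis and its mean H3K27ac density in normalized counts per kb over the 6 libraries on the log y axis. Orange points contain the TSS of a protein-coding gene (391) and grey points do not (885). The 8 longest and the 5 densest domains are labelled, and the domain at ACTN4 (50094 bp) is the longest.

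The longest domain, at chr19:39137657-39187750 (50094 bp), contained the start and exons of ACTN4, an alpha-actinin that cross-links actin filaments. Its normalized counts were 2827 and 3088 (Par), 2787 and 2806 (LM2) and 2832 and 2828 (BrM2). Par and BrM2 overlapped and LM2 lay just below, and the domain passed no test (log2 fold change -0.08 ± 0.22 in LM2 and -0.06 ± 0.22 in BrM2 against Par, standard error of the fit). Next came an intergenic domain at chr6:43998358-44046424 (48067 bp), which overlaps the long non-coding RNA gene SCIRT and is nearest to TMEM63B, with 2220 and 2414 (Par), 1802 and 1942 (LM2) and 1539 and 2045 (BrM2). The domain at BCL2L1, the gene of the anti-apoptotic protein BCL-XL, was 41179 bp long, that nearest to the cytokine gene LIF 39901 bp, that in the peptidase gene AOPEP 41953 bp, and that in DNAJB12, a co-chaperone of the endoplasmic reticulum, 38917 bp. None of these passed the test in any contrast.

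Of the 8 longest domains, 1 was called. It spanned chrX:45593008-45640101 (47094 bp), was intergenic, 532862 bp from the nearest protein-coding TSS (DIPK2B), and held MIR222HG, the host transcript of the microRNAs miR-221 and miR-222. Its normalized counts were 1985 and 1797 (Par), 1609 and 1555 (LM2) and 916 and 841 (BrM2). Both BrM2 libraries lay far below the other 4. The log2 fold change was -1.10 ± 0.23 in BrM2 against Par (adjusted p = 0.000235, DESeq2 with Benjamini-Hochberg adjustment), -0.85 ± 0.23 in BrM2 against LM2 (adjusted p = 0.0163) and -0.26 ± 0.23 in LM2 against Par (adjusted p = 0.796). H3K4me3 in the same domain fell by 1.53 on the log2 scale in BrM2 against Par (SE 0.30, adjusted p = 3.94e-05), with normalized counts of 1067 and 1030 in Par and 353 and 372 in BrM2. The other H3K27ac peaks within 1 Mb moved with it, with a median log2 fold change of -1.06, and with the median of its 5 Mb window taken out the value was -0.08 (adjusted p = 0.981). The call in BrM2 against LM2 was lost when any 1 of the LM2 or BrM2 libraries was left out.

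The densest domains were also stable. CDCA4 had the highest density, 96.3 normalized counts per kb, followed by FOSL1 (85.4), BAHCC1 (85.2), the intergenic MIR23AHG domain nearest to NANOS3 (85.1) and WEE1, a kinase that restrains entry into mitosis (78.6). The domain of FOSL1, which encodes the AP-1 protein FRA-1, ran over 34866 bp at chr11:65654251-65689116 and took in the starts of DRAP1, CCDC85B, C11orf68 and FIBP as well. It gave 2742 and 3283 (Par), 2765 and 3025 (LM2) and 2903 and 3144 (BrM2), with all lines overlapping. None of the 5 densest passed a test, and their log2 fold changes against Par lay between -0.23 (BAHCC1) and 0.34 (NANOS3), both in BrM2.

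MicroRNA genes are of interest because a domain over a host gene may serve a small RNA in place of a protein. Of 3029 microRNA genes in the annotation, 275 lay inside an H3K27ac peak and 33 inside 31 of the long domains. RefSeq held mature sequences for 23 of these 33. A few of the mature forms, picked after the values of their domains were seen, are given here, with bases 2 to 8 (the seed, which pairs with targets) in capitals.
hsa-miR-221-3p: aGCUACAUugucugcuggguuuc
hsa-miR-222-3p: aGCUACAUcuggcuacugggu
hsa-miR-21-5p: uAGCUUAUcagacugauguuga
hsa-miR-27a-3p: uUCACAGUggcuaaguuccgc
hsa-miR-23a-3p: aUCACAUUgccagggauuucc
hsa-miR-100-5p: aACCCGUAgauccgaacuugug
hsa-let-7a-5p: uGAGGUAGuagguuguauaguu
miR-221-3p and miR-222-3p share the seed GCUACAU, and the domain that holds both genes is the one that was lower in BrM2. MIR21, a microRNA gene widely active in carcinoma, lay in a domain of 36628 bp at chr17:57900985-57937612 with 62.6 normalized counts per kb and log2 fold changes of -0.03 in LM2 and -0.10 in BrM2. MIR27A and MIR23A lay in the dense domain nearest to NANOS3 (0.04 and 0.34). MIR100 and MIRLET7A2 lay in neighbouring domains of 32151 and 16283 bp on chromosome 11, with log2 fold changes from -0.19 to -0.02. Outside these, the domain at MIR4284, nearest to STX1A, was called lower in BrM2 against Par (-0.92 ± 0.27, adjusted p = 0.0159), and that holding AC093165.1, nearest to RTN4, higher (0.85 ± 0.28, adjusted p = 0.0485). In BrM2 against LM2 the domain holding MIR1252 was called higher (1.0, adjusted p = 0.0344), and those holding MIR4506 (-1.11, adjusted p = 0.0161) and MIR5094 (-1.37, adjusted p = 0.00105) lower. The MIR5094 domain is the one in AP3S2 given below. With the MIR222HG domain, these were the only calls among the 31 domains. Of all long domains, 4.0% were called in LM2 against Par, 8.93% in BrM2 against Par and 6.03% in BrM2 against LM2. Alternative fits for MIR4284, AC093165.1, MIR1252 and MIR4506 are not given here. MicroRNA levels themselves were not measured.

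Some long domains lay near each other, and their spacing was not compared with that of shorter peaks. The median gap between neighbouring domains was 608 kb. With domains under 100 kb apart joined, 680 stood alone, 191 clusters held 2 or 3, and 34 clusters held 4 or more, with 166 domains in all. The largest cluster held 9 domains near PHLDA1 and KRR1 on chromosome 12, and none was called in any contrast. A cluster of 8 near TGFB2, the gene of the ligand TGF-beta-2, clusters of 7 near DKK3, MICAL2 and PARVA, near BCAR3 and near ERRFI1, and one of 5 at MYC also had no called member. By comparison, 4 of the 6 domains of the MIR222HG cluster on chromosome X were called lower in BrM2 against Par, with log2 fold changes of all 6 from -1.10 to -0.79, and 3 of the 5 near EXT1 on chromosome 8, which encodes an enzyme of heparan sulfate synthesis, were called in BrM2, with changes of all 5 from 0.33 to 1.37.

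Known genes of this cell type were read from lists. Among all 19445 protein-coding genes, 836 (4.3%) overlapped a long domain with their body or the 2 kb before it. The share was 55% for actin cytoskeleton and caveolae genes (11 of 20), 50% for YAP/TAZ-TEAD factors and targets (6 of 12), 39.1% for matrix genes and their receptors (9 of 23), 35.7% for EMT and other transcription factors (10 of 28), 34.6% for growth factor receptors and ligands (9 of 26) and 22.2% for AP-1 factors (2 of 9). Lower shares were seen for the protease and plasminogen system (3 of 15), lung and brain metastasis genes (4 of 20), cytokines and NF-kappaB (4 of 21), luminal and epithelial genes (3 of 17), basal and myoepithelial genes (1 of 9) and blood and endothelial genes (1 of 10). These shares describe the lists, which were drawn up with the cell line known, and were not tested.

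For most of these genes the domains did not pass a test. Among the AP-1 factors, FOSL1 (above) and FOSL2 had domains, and FOSL2 gave 720 and 888 (Par), 573 and 748 (LM2) and 962 and 1174 (BrM2). Its change of 0.69 ± 0.27 in BrM2 against LM2 passed only with the replicate number as a block (adjusted p = 0.152, and 0.00233 with the block). Among matrix genes, the domains of the integrin genes ITGA3 and ITGB1, of the laminin gene LAMB1 and of the collagen gene COL6A1 had log2 fold changes against Par between -0.48 and 0.20. In no contrast was any of the 11 matrix domains called. The domain at AXL, a receptor tyrosine kinase of mesenchymal cells, gave 923 and 1185 (Par), 936 and 1119 (LM2) and 1229 and 1567 (BrM2). Both BrM2 libraries lay above the other 4, but the log2 fold change of 0.41 ± 0.26 missed the threshold (adjusted p = 0.5). PLAU, the gene of urokinase, had a domain of 31234 bp with changes of -0.09 in LM2 and -0.18 in BrM2.

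Several list domains had low LM2 libraries without passing the main test. The domain of VIM, which encodes the mesenchymal intermediate filament vimentin, gave 544 and 518 (Par), 303 and 382 (LM2) and 442 and 378 (BrM2), with -0.63 ± 0.26 in LM2 (adjusted p = 0.205, and 0.0431 with the replicate number as a block). For KLF6, a zinc finger transcription factor gene, these were 942 and 917, 508 and 687, and 717 and 750 (-0.64 ± 0.26, adjusted p = 0.174, and 0.0154 with the block). The 3 domains inside EGFR, the epidermal growth factor receptor gene, had values of -0.55, -0.63 and -0.89, of which the last passed only with the block (adjusted p = 0.0598, and 0.0125). The peaks around these domains were lower too, with medians of -0.48 at VIM, -0.54 at KLF6 and -0.35 to -0.34 at EGFR. With the median of the 5 Mb window taken out, the values were -0.16 at VIM (adjusted p = 1.0), -0.31 at KLF6 (adjusted p = 0.92) and -0.14, -0.22 and -0.47 at EGFR (adjusted p = 1.0, 1.0 and 0.712). A domain in an intron of PTPRC, the gene of the leukocyte antigen CD45, gave 271 and 226, 146 and 135, and 266 and 260, although neither mark was found at the start of this gene (-0.82 ± 0.28, adjusted p = 0.0789, 0.0122 with the block, and 0.0409 with the 5 Mb median taken out). In BrM2 against LM2 the PTPRC domain changed by 0.90 ± 0.28 (adjusted p = 0.0512, 0.00494 with the block, and 0.012 with the 5 Mb median taken out). The EGFR domains, in the order above, changed by 0.78, 0.79 and 0.62 in that contrast. Their adjusted p-values were 0.131, 0.0929 and 0.328, and with the block 0.0143, 0.0104 and 0.145. With the 5 Mb median taken out their changes were 0.08, 0.09 and -0.08.

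Of 82 list domains, 3 (3.66%) were called in LM2 against Par, where 4.0% of all long domains were, 4 (4.88%) in BrM2 against Par, where 8.93% were, and 1 (1.22%) in BrM2 against LM2, where 6.03% were. All those called against Par were lower. The domain at the start of AJUBA, a LIM protein that dampens Hippo signalling, gave 553 and 664 (Par), 254 and 384 (LM2) and 602 and 590 (BrM2), and fell by 0.94 on the log2 scale in LM2 (SE 0.28, adjusted p = 0.03). It was higher in BrM2 than in LM2 by 0.91 ± 0.28 (adjusted p = 0.048), a call lost in 8 of 12 alternative fits, among them that with the 5 Mb median taken out (0.40, adjusted p = 0.832). The other 2 called in LM2 lay in the gene model of CAV2, which encodes a caveolin, at chr7:116032760-116042856 and chr7:116078561-116089367, with changes of -0.99 ± 0.27 (adjusted p = 0.0117) and -0.94 ± 0.29 (adjusted p = 0.0378). Other peaks within 1 Mb had a median of -0.60 at AJUBA and -0.71 at both CAV2 domains, and with the 5 Mb median taken out none of the 3 was called (adjusted p = 0.782, 0.958 and 1.0). Each of the 3 calls was also lost when either Par library or LM2 replicate 1 was left out, those at CAV2 also without LM2 replicate 2, and those at AJUBA and the second CAV2 domain also without either BrM2 library.

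In BrM2, 4 list domains were called against Par. The first, inside ETS1, the gene of a transcription factor of invasion, at chr11:128325306-128342658, gave 582 and 332 in Par and 210 and 156 in BrM2, with a change of -1.31 ± 0.34 (adjusted p = 0.00446). The other 2 ETS1 domains had changes of -0.36 and -0.26 and were not called. BHLHE40, which encodes a transcriptional repressor of the clock, gave 629 and 510 in Par and 275 and 278 in BrM2 (-1.04 ± 0.27, adjusted p = 0.00491), while the peaks around it had a median of -0.08. The remaining calls were 1 of the CAV2 domains (-0.98 ± 0.30, adjusted p = 0.0233) and the LMNA domain of 19741 bp (-0.79 ± 0.26, adjusted p = 0.0426), LMNA being the gene of the nuclear lamins A and C. With the 5 Mb median taken out, BHLHE40 was still called (-0.98, adjusted p = 0.013) and ETS1, CAV2 and LMNA were not (adjusted p = 0.216, 0.838 and 0.333). The LMNA call was lost when any 1 of the 6 libraries was left out, that at ETS1 without Par replicate 1 or BrM2 replicate 2, that at BHLHE40 without Par replicate 1 or either BrM2 library, and that at CAV2 without Par replicate 1, LM2 replicate 1 or either BrM2 library.

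The first contrast asked which long domains differ between the lung-selected cells and the parental line. Of the 1276 domains, 51 (4.0%) were called in LM2 against Par (adjusted p under 0.05), where 3.63% of all tested H3K27ac peaks were called. There were 28 domains called higher and 23 called lower, while of all tested peaks 2.72% were called higher and 0.907% lower. Thus 54.9% of the called domains and 75% of all called peaks were higher. Shorter peaks that averaged 200 or more normalized counts, a limit chosen after the data were seen, split into 36 higher and 26 lower (58.1% higher). The median log2 fold change of the domains was -0.13 against -0.02 for all peaks, and the called domains had a median absolute change of 1.05. With the replicate number as a block, 152 domains (11.9%) were called against 5.44% of tested peaks. With the median of each 5 Mb window taken out, 28 (2.19%) were called, 24 higher and 4 lower, against 2.86% of tested peaks (2.47% higher and 0.385% lower). edgeR's quasi-likelihood test called 69 (5.41%, against 5.14%). With at least 10 counts required in every library, 47 were called, 32 higher and 15 lower, against 3.55% of tested peaks. Without 1 library the count was 14 (Par replicate 1), 24 (Par replicate 2), 12 (LM2 replicate 1), 13 (LM2 replicate 2), 34 (BrM2 replicate 1) and 37 (BrM2 replicate 2).

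The largest rise was in an intron of PCBP3, an RNA-binding protein gene, at chr21:47292366-47308393 (16028 bp; window above). Normalized counts were 35 and 43 (Par), 634 and 688 (LM2) and 430 and 484 (BrM2). The domain was hardly marked in Par and well marked in both sub-populations, with no overlap. In LM2 the log2 fold change was 4.09 ± 0.30 (adjusted p = 1.68e-37) and 3.55 ± 0.30 in BrM2 (adjusted p = 3.4e-27), and LM2 and BrM2 did not differ beyond the threshold (-0.54 ± 0.26, adjusted p = 0.342). Peaks within 1 Mb had medians of -0.41 and -0.05, so that its surroundings did not rise. H3K4me3 peak counts there were 0 and 1 (Par), 21 and 14 (LM2) and 25 and 17 (BrM2). Libraries also did not overlap in 51.0% of all domains in LM2 against Par and in 60.9% in BrM2 against Par. Over all peaks these shares were 43.3% and 50.4%. Since lengths were called on pooled reads, the PCBP3 domain may have reached 10 kb only through the LM2 and BrM2 reads. The same holds for the METRNL domain below and for other domains just over the limit that are low in some lines, such as those in ARSG and near ADARB2. This was not tested.

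The second, an intergenic domain at chr17:81141736-81152671 some 99787 bp from the start of METRNL, a secreted protein gene, gave 26 and 34 (Par), 306 and 410 (LM2) and 164 and 235 (BrM2) (3.57 ± 0.36 in LM2, adjusted p = 1.52e-19, and 2.72 ± 0.36 in BrM2, adjusted p = 6.56e-11). Next was a domain in ARSG, a lysosomal sulfatase gene, nearest to the start of the autophagy gene WIPI1 (chr17:66372279-66382732), with 93 and 132 (Par), 545 and 510 (LM2) and 301 and 364 (BrM2). It rose by 2.23 ± 0.29 in LM2 (adjusted p = 1.72e-11) and 1.56 ± 0.29 in BrM2 (adjusted p = 2.02e-05). At METRNL and ARSG, too, the neighbouring peaks stayed near 0, with medians between -0.15 and 0.08. An intergenic domain at chr20:55593388-55611988, 229410 bp from BMP7, a ligand of the TGF-beta family, gave 210 and 222 (Par), 798 and 837 (LM2) and 1089 and 1147 (BrM2). Its changes were 1.92 ± 0.24 (adjusted p = 6.69e-12) and 2.37 ± 0.25 (adjusted p = 1.79e-18). These 4 domains were called in both sub-populations under every one of the 12 alternative fits, and both contrasts share the Par libraries.

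CSF3, the gene of the cytokine G-CSF, was the fifth, and differed between the sub-populations. The domain at chr17:38169022-38184310 contained its start and gave 299 and 512 (Par), 1061 and 1130 (LM2) and 382 and 449 (BrM2). Only the LM2 libraries stood apart. In LM2 the log2 fold change was 1.44 ± 0.29 (adjusted p = 0.000173), 0.03 ± 0.30 in BrM2 against Par (adjusted p = 0.984) and -1.40 ± 0.30 in BrM2 against LM2 (adjusted p = 0.000402, lost without LM2 replicate 2 or BrM2 replicate 1). H3K4me3 inside it gave 15 and 30 (Par), 419 and 562 (LM2) and 7 and 15 (BrM2), a change of 4.38 ± 0.46 in LM2 (adjusted p = 3.03e-17). Peaks around it had a median H3K27ac change of -0.06.

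The 5 smallest values in LM2 lay near ARHGAP5 (-1.46 ± 0.32, adjusted p = 0.000559), at the start of WWC3 on chromosome X (-1.34 ± 0.33, adjusted p = 0.00367), in ROR1, a Wnt-5a receptor gene (-1.32 ± 0.34, adjusted p = 0.00721), near AKR1E2 over the long non-coding RNA gene MANCR (-1.32 ± 0.28, adjusted p = 0.000265) and near UNC5CL (-1.13 ± 0.31, adjusted p = 0.0141). The MANCR domain, 26721 bp at chr10:4710444-4737164, gave 1737 and 1111 (Par), 579 and 564 (LM2) and 1339 and 1157 (BrM2). The ROR1 domain gave 213 and 182 (Par), 58 and 103 (LM2) and 203 and 270 (BrM2). In both, LM2 alone was low. Neighbouring peaks were lower as well, with medians from -0.71 (WWC3) to -0.38 (UNC5CL). With the 5 Mb median taken out, the MANCR domain was still called (-0.99, adjusted p = 0.0178) and the other 4 were not (adjusted p from 0.133 to 0.868). Without Par replicate 1 the calls at ARHGAP5, ROR1 and MANCR were lost, without Par replicate 2 those at WWC3, ROR1 and UNC5CL, without LM2 replicate 1 those at WWC3, ROR1 and UNC5CL, and without LM2 replicate 2 those at ARHGAP5 and WWC3.

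**Figure D2:**
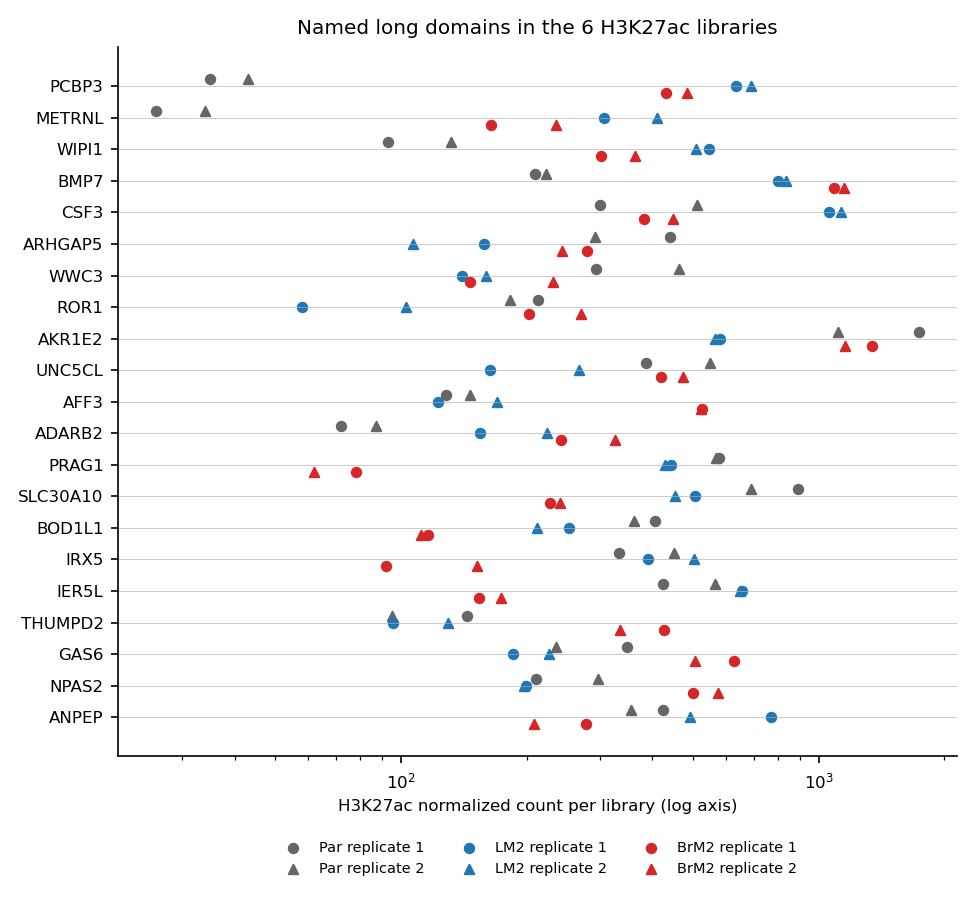
Each row is a domain named for its change between lines, and each point is the normalized H3K27ac count of 1 library on a log axis (grey Par, blue LM2, red BrM2, circles replicate 1 and triangles replicate 2). At PCBP3 the Par libraries (35 and 43) lie far to the left of the other 4, and at PRAG1 the BrM2 libraries (78 and 62) do.

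The second contrast set the brain-selected cells against the parental line. Here 114 domains (8.93%) were called against 5.29% of all tested peaks. Of these domains 59 were higher and 55 lower, while of all tested peaks 3.62% were called higher and 1.67% lower. The median log2 fold change was near 0 for domains (-0.00) and all peaks (-0.02). Since domains hold more counts than other peaks, the shorter peaks above the same limit of 200 normalized counts were also taken, and 5.41% of 2900 such peaks were called, against 8.42% of the 1211 domains above the limit. The same shares were 2.14% and 3.72% in LM2 against Par, and 3.07% and 6.11% in BrM2 against LM2. Domains without a TSS were called more often (97 of 885) than those with one (17 of 391), and of those with a TSS 3 were higher and 14 lower, a difference that was not tested. With the replicate block 251 domains (19.7%) were called against 8.13% of peaks, and with the 5 Mb median taken out 59 (4.62%) against 3.71%. Of these 59 domains 45 were higher and 14 lower, while of all tested peaks 2.95% were called higher and 0.758% lower. edgeR's quasi-likelihood test called 162 (12.7%, against 6.88%). With at least 10 counts required in every library, 123 were called (against 5.99%). The count fell to 49 without Par replicate 1, 56 without Par replicate 2, 23 without BrM2 replicate 1 and 30 without BrM2 replicate 2, and was 82 and 89 without either LM2 library.

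The largest values in BrM2 were those at PCBP3, METRNL and BMP7 given above, followed by AFF3 and ADARB2. In an intron of AFF3, a gene of a nuclear protein of transcription elongation, a domain at chr2:100419619-100431155 gave 128 and 146 (Par), 123 and 170 (LM2) and 526 and 522 (BrM2). Par and LM2 overlapped and BrM2 lay clear of both. It rose by 1.93 ± 0.29 against Par (adjusted p = 1.22e-08), and by 1.62 with the 5 Mb median taken out (adjusted p = 6.75e-06). The intergenic domain at chr10:2248700-2259414, 468981 bp from ADARB2, gave 72 and 87 (Par), 155 and 224 (LM2) and 242 and 326 (BrM2) (1.83 ± 0.33, adjusted p = 7.11e-06), and its neighbours within 1 Mb had a median of 1.92. With the 5 Mb median taken out its value was 1.92 (adjusted p = 1.96e-06).

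The smallest value belonged to an intergenic domain on the short arm of chromosome 8, at chr8:8141252-8157177, 86772 bp from the pseudokinase gene PRAG1. Normalized counts were 576 and 568 (Par), 442 and 428 (LM2) and 78 and 62 (BrM2), a change of -3.01 ± 0.29 (adjusted p = 3.65e-21). Peaks within 1 Mb had a median of -2.70, nearly the same fall, and the domain kept a change of -1.16 beyond its 5 Mb window (adjusted p = 0.00568). In an intron of SLC30A10, a manganese exporter gene, a domain of 22697 bp gave 893 and 688 (Par), 507 and 454 (LM2) and 228 and 241 (BrM2) (-1.76 ± 0.27, adjusted p = 3.33e-08), with LM2 between the other lines (-0.72 ± 0.26 against Par, adjusted p = 0.109, and 0.0086 with the block). The intergenic domain nearest to BOD1L1, 352168 bp away, gave 405 and 361, 253 and 212, and 116 and 112 in the same order (-1.75 ± 0.29, adjusted p = 6.21e-07), and LM2 against Par passed only with the block (-0.72 ± 0.27, adjusted p = 0.144, and 0.0237). A domain at the start of the homeobox gene IRX5, which also overlaps the long non-coding RNA gene CRNDE, gave 332 and 450 (Par), 390 and 502 (LM2) and 92 and 152 (BrM2) (-1.70 ± 0.33, adjusted p = 3.01e-05, lost without BrM2 replicate 1). The fifth, near IER5L on chromosome 9, changed by -1.60 ± 0.28 (adjusted p = 2.62e-06). All 5 were still called with the 5 Mb median taken out.

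The third contrast tested the difference between the sub-populations itself. Between BrM2 and LM2, 77 domains (6.03%) were called against 2.94% of all tested peaks. Of these domains 46 were higher in BrM2 and 31 lower, while of all tested peaks 1.71% were called higher and 1.22% lower. With the 5 Mb median taken out the count was 20 (1.57%, against 1.55%), 13 higher and 7 lower, while of all tested peaks 0.932% were called higher and 0.615% lower. With the replicate block the count was 239 (18.7%, against 6.17%). In the line-only fit it was 13 and 26 without LM2 replicate 1 or 2, 5 and 15 without BrM2 replicate 1 or 2, and 65 and 72 without either Par library. edgeR's quasi-likelihood test called 117 (9.17%, against 3.89%). With at least 10 counts required in every library, 67 were called, and the split turned to 29 higher and 38 lower, against 2.93% of tested peaks.

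Higher in BrM2 than in LM2 were the domains at AFF3 (1.85 ± 0.29, adjusted p = 1.12e-07), in SLC8A1, a sodium-calcium exchanger gene nearest to the start of THUMPD2 (1.76 ± 0.32, adjusted p = 2.05e-05), in ROR1 (1.57 ± 0.35, adjusted p = 0.000885), near GAS6, the gene of the ligand of AXL (1.46 ± 0.29, adjusted p = 0.000167), and near the clock gene NPAS2 (1.44 ± 0.28, adjusted p = 0.000101). The SLC8A1 domain gave 144 and 95 (Par), 96 and 130 (LM2) and 426 and 335 (BrM2). The GAS6 domain, at chr13:114603494-114617685, gave 347 and 235, 186 and 226, and 626 and 505 in the same order. In both, BrM2 stood above the other lines. Around GAS6 the neighbouring peaks went the other way, with a median of -0.27. Lower in BrM2 were the domains near PRAG1 (-2.62 ± 0.29, adjusted p = 2.14e-15), IER5L (-2.0 ± 0.28, adjusted p = 1.29e-09), IRX5 (-1.89 ± 0.33, adjusted p = 4.24e-06) and CSF3 (above), and one in AP3S2, nearest to ANPEP, the gene of aminopeptidase N (-1.37 ± 0.31, adjusted p = 0.00105). The IER5L domain gave 424 and 566 (Par), 657 and 647 (LM2) and 154 and 174 (BrM2), and the AP3S2 domain 424 and 356, 771 and 493, and 278 and 208. The calls at SLC8A1 and IRX5 were lost without BrM2 replicate 1, at NPAS2 without BrM2 replicate 2, at GAS6 without LM2 replicate 1 or BrM2 replicate 1, at AP3S2 without LM2 replicate 1 or BrM2 replicate 2, and at ROR1 without LM2 replicate 1 or either BrM2 library. Of these 10, the domains at ROR1, PRAG1 and AP3S2 were not called with the 5 Mb median taken out (adjusted p = 0.109, 0.218 and 0.887). With the block 3 more of the domains named for their change between lines passed in this contrast. They were ARHGAP5 (adjusted p = 0.0715, and 0.00161 with the block), METRNL (0.134, and 0.0106) and WIPI1 (0.221, and 0.0436). List domains at FOSL2, EGFR and PTPRC also passed with the block in this contrast, as given above. The AP3S2 domain passed with the block in LM2 against Par (0.235, and 0.0202) and in BrM2 against Par (0.231, and 0.0192).

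**Figure D3:**
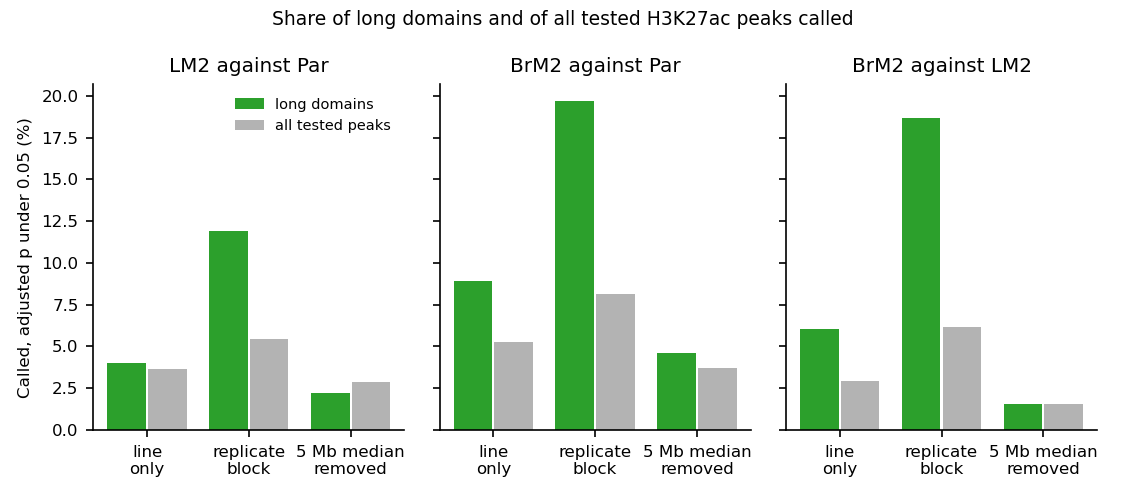
Bars give the percentage called at an adjusted p under 0.05 among the long domains (green) and among all tested H3K27ac peaks (grey), for 3 contrasts and 3 DESeq2 fits. The green bar exceeds the grey one in BrM2 against Par with the line-only fit (8.93% and 5.29%) and the bars are level in BrM2 against LM2 with the 5 Mb median removed (1.57% and 1.55%).

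Called domains mostly had the sign of their surroundings. For each domain the median log2 fold change of the other peaks within 1 Mb was taken. All 23 domains called lower in LM2 had a neighbour median of the same sign, with a middle value of -0.49, against 20 of the 28 called higher, with 0.18. In BrM2 the figures were 53 of 55 lower domains (-0.56) and 52 of 59 higher ones (0.24), and in BrM2 against LM2 they were 29 of 31 (-0.63) and 44 of 46 (0.42). Among domains that were not called the signs were the same for 852 of 1225, 785 of 1162 and 859 of 1199. Over all 1276 domains the change of a domain and the median of its neighbours correlated with Pearson r of 0.51, 0.58 and 0.67 in the 3 contrasts (Spearman rho 0.55, 0.55 and 0.643). The points share libraries and overlapping neighbourhoods, so that these values are descriptions. On several chromosomes, though not on all, the domains and the peaks had medians of the same sign. On chromosome X the 18 domains had a median change of -0.88 in BrM2, with 8 called lower and 0 higher. The X peaks that averaged 50 or more normalized counts, the domains among them, had a median of -0.56. The same limit holds for the peak medians of the chromosomes that follow. On chromosome 2, 14 domains were called higher in BrM2 and 2 lower, with medians of 0.30 for domains and 0.24 for peaks. On chromosome 9 these medians were -0.40 and -0.41, and in LM2 chromosome 7 had -0.44 and -0.42 and chromosome 13 had 0.35 and 0.43. Medians of opposite sign were also seen, as on chromosome 22 in LM2 (0.14 and -0.07) and on chromosome 3 in BrM2 (0.14 and -0.01).

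**Figure D4:**
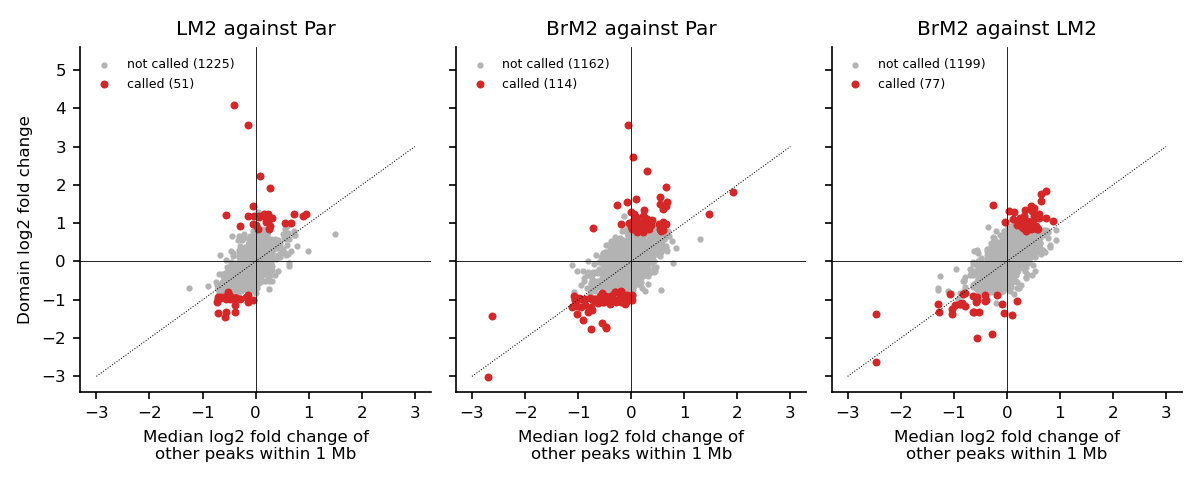
Each point is 1 of the 1276 long domains, with the median log2 fold change of other H3K27ac peaks within 1 Mb on the x axis and its own log2 fold change on the y axis. Called domains are red, and the dotted line marks equal values. Called lower domains lie mostly left of 0 (23 of 23 in LM2 and 53 of 55 in BrM2), while the 2 highest points, at PCBP3 and METRNL, lie near an x of 0 or below.

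H3K4me3 came from separate libraries and was not used to choose the domains. The 808 domains with this mark held 1237 H3K4me3 peaks, of which 21 (1.89% of those tested) were called in LM2, against 2.51% of all tested H3K4me3 peaks, 48 (3.98%, against 3.61%) in BrM2, and 60 (4.85%, against 3.18%) in BrM2 against LM2. With the replicate block the shares were 15.0%, 19.2% and 21.6%, against 14.4%, 17.7% and 22% of all tested peaks. Where a domain was called for H3K27ac and held H3K4me3, the marks mostly had the same sign: 23 of 25 domains in LM2, 48 of 53 in BrM2 and 35 of 42 in BrM2 against LM2. Over all 808 domains the same sign was seen in 68.7%, 68.9% and 70.2%, and the changes of the marks correlated with Pearson r of 0.546, 0.53 and 0.528. Where both marks were called, in 5, 11 and 14 domains, the sign was the same in each.

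The 5 domains called for both marks in LM2 were, besides PCBP3, CSF3 and MANCR, those at CFLAR and nearest to TNC, which are named after their values were seen. CFLAR encodes an inhibitor of caspase-8, and its domain gave 474 and 573 in Par and 300 and 274 in LM2 for H3K27ac (-0.86 ± 0.26, adjusted p = 0.0308, lost when any 1 of the 6 libraries was left out) and 77 and 69 against 9 and 5 for H3K4me3 (-3.52 ± 0.65, adjusted p = 1.75e-05). The domain 471472 bp from TNC, the gene of the matrix protein tenascin-C, gave 129 and 174 in Par and 321 and 366 in LM2 (1.18 ± 0.29, adjusted p = 0.0031), with a neighbour median of 0.89, and lost its call without Par replicate 1 or either LM2 library. BrM2 lay on the same side of Par as LM2 at CFLAR and near TNC. At CFLAR it gave 318 and 297 for H3K27ac and 18 and 24 for H3K4me3. Near TNC it gave 233 and 251 for H3K27ac. H3K4me3 near TNC was 11 and 25 (Par), 66 and 81 (LM2) and 49 and 64 (BrM2). At MANCR, H3K4me3 gave 167 and 203 (Par), 30 and 66 (LM2) and 320 and 318 (BrM2), low in LM2 alone as for H3K27ac. Near GAS6 it gave 57 and 66, 23 and 39, and 277 and 294, a rise of 2.21 ± 0.41 in BrM2 against Par (adjusted p = 8.18e-06).

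In other domains the promoter mark moved and H3K27ac of the whole domain did not pass the test. At FSCN1, the gene of the actin-bundling protein fascin, the H3K27ac domain gave 317 and 321 (Par), 351 and 317 (LM2) and 359 and 384 (BrM2), with changes of 0.07 ± 0.26 and 0.22 ± 0.26. H3K4me3 inside it gave 140 and 162 (Par), 613 and 491 (LM2) and 571 and 486 (BrM2), a rise of 1.86 ± 0.33 in LM2 (adjusted p = 7.2e-06) and 1.80 ± 0.33 in BrM2 (adjusted p = 1.06e-05). CLDN4, the gene of the tight junction protein claudin-4, had H3K4me3 of 279 and 369 (Par), 18 and 39 (LM2) and 58 and 98 (BrM2) (-3.44 ± 0.46, adjusted p = 7.64e-11, and -2.04 ± 0.44, adjusted p = 0.000267). Its H3K27ac domain gave 299 and 433, 200 and 185, and 165 and 224, with -0.92 ± 0.30 in LM2 (adjusted p = 0.0586) and -0.92 ± 0.31 in BrM2 (adjusted p = 0.0511), and was called with the replicate block (adjusted p = 0.00701 and 0.00515). At IL11, a cytokine gene, H3K4me3 rose by 1.47 ± 0.36 in LM2 (adjusted p = 0.00441) and 1.33 ± 0.36 in BrM2 (adjusted p = 0.0107). Its H3K27ac gave 73 and 286 (Par), 298 and 583 (LM2) and 314 and 509 (BrM2), with replicate 2 the higher in each line and a standard error of 0.86 for both changes. The block called it in both (adjusted p = 0.0359 and 0.0346). In an intron of ADAMTS12, a metalloprotease gene, H3K4me3 gave 141 and 206 (Par), 114 and 158 (LM2) and 373 and 434 (BrM2) (1.21 ± 0.37, adjusted p = 0.0314), while the H3K27ac domain of 39024 bp gave 1903 and 1828, 1144 and 1156, and 1534 and 1569. That domain changed by -0.70 ± 0.23 in LM2, which missed the threshold (adjusted p = 0.0552, and 0.000878 with the block).

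**Figure D5:**
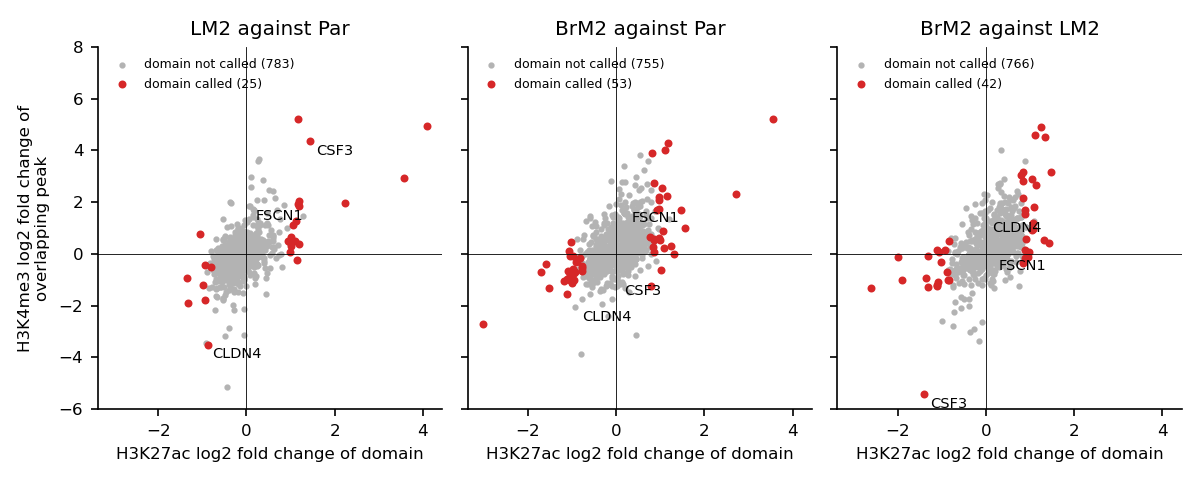
Each point is 1 of the 808 long domains that overlap an H3K4me3 peak, with the H3K27ac log2 fold change of the domain on the x axis and the H3K4me3 log2 fold change of the peak that shares most bases with it on the y axis. Domains called for H3K27ac are red. CSF3 lies at 1.44 and 4.38 in LM2 against Par, and FSCN1 lies far from 0 on the y axis only.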

How the data were processed

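ChIP-seq libraries of H3K27ac and H3K4me3 (6 each, 2 replicates per line) were analysed; the 3 input samples have no file used here. Per the labels and the file headers, the authors fixed cells with 1% formaldehyde, aligned reads to hg19 (Trimmomatic 0.32, Bowtie2 2.3.4.3, Picard 2.18.21), pooled the reads of each mark over the lines, called 1 set of broad peaks on the pool with MACS2 2.1.2 and deposited raw counts per consensus peak from featureCounts 1.6.0. The label of this set also names BoM, not analysed here, and whether its reads entered the pool is not given in the sources used here. Lengths are those of the consensus peaks, not of peaks in any 1 line. The replicates are given as biological, but separate cultures are not described, so p-values measure the spread between these libraries.

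All peaks of a mark were fitted in 1 DESeq2 1.42.0 model (R 4.3.3) with line as the only term, size factors by the median of ratios, fold changes left unshrunken and p-values adjusted after Benjamini and Hochberg, with 3 residual degrees of freedom. A call is an adjusted p under 0.05. Values are normalized counts, and errors are standard errors of the fit. Between 2 and 2 libraries an exact permutation test cannot go below p = 0.333, so none was used. Total counts, given with the results, set the precision. Genes came from GENCODE release 44 mapped to hg19, and mature microRNAs from RefSeq (GRCh38.p14). Neighbours were peaks within 1 Mb that averaged 20 or more normalized counts. A further fit scaled each line by the median log2 ratio to Par in each 5 Mb window (pseudocount 0.5, at least 5 peaks), which also takes out part of a change shared by the window's own domains. Scripts were tested on simulated counts.

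Alternatives were edgeR 4.0.16 (quasi-likelihood), a replicate block, TMM factors, size factors from shorter peaks, a minimum of 10 counts in every library, the 5 Mb median, other length limits and leaving out each library. Replicate numbers come from the titles. Deviations of same-numbered H3K27ac libraries from their line means correlated with r = 0.407 between Par and LM2, 0.607 between Par and BrM2, and 0.48 between the sub-populations, over 20124 peaks, and H3K4me3 libraries with 0.843, 0.788 and 0.825 over 13309 peaks, so the numbers were taken to pair the libraries, and blocked values stand beside the results they change.

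Domains named in the text were the 8 longest, the 5 with most counts per kb, in each contrast the 5 largest and 5 smallest log2 fold changes among called domains whose libraries did not overlap, and up to 4 per gene list with most counts per kb; some of these are not reported here. The domains at ETS1, BHLHE40, CAV2, CFLAR and TNC and the microRNA domains were named after their values were seen. The members and lists were chosen with earlier results of these data known.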

Additional observations from a re-analysis of the deposited data

Results flagged for a closer look

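For 10 named domains the change against Par differed between the sub-populations, as tested by BrM2 against LM2 in the same DESeq2 fit. The difference of the log2 fold changes (BrM2 less LM2) was 1.85 at AFF3, 1.76 near THUMPD2, 1.57 at ROR1, 1.46 near GAS6 and 1.44 near NPAS2. It was -2.62 near PRAG1, -2.0 near IER5L, -1.89 at IRX5, -1.40 at CSF3 and -1.37 near ANPEP. These domains were among those with the largest values of this contrast, so that their sizes are those of selected items. With 2 libraries a line, no search for single outlying libraries was made.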

How the results depend on the processing

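With the replicate block, 11.9%, 19.7% and 18.7% of domains were called in LM2 against Par, BrM2 against Par and BrM2 against LM2, and 15.0%, 19.2% and 21.6% of their H3K4me3 peaks, where the fit without it gave 4.0%, 8.93% and 6.03%, and 1.89%, 3.98% and 4.85%. With the 5 Mb median removed the domain shares were 2.19%, 4.62% and 1.57%, and edgeR gave 9.17% in BrM2 against LM2. Leaving out 1 library gave 0.94% to 2.9%, 1.8% to 6.97% and 0.392% to 5.64% of domains, and 0.868% to 1.82%, 1.56% to 3.9% and 1.21% to 4.53% of H3K4me3 peaks, with fewer samples in each such fit. Domains held 16.2% of counts, 22.7% with a limit of 8000 bp and 7.6% with 15000 bp, and 13.3% and 5.92% of peak bases at 10000 and 15000 bp. With at least 10 counts in every library the calls split into 32 higher and 15 lower in LM2, 59 and 64 in BrM2, and 29 and 38 in BrM2 against LM2. At 15000 bp they split into 11 and 2 in LM2. Calls were followed in 54 domain contrasts, which include the domains at IFIT2 and CMIP, added after their values were seen and not described above. Under 12 alternatives each, 514 of 648 values kept their call, 134 lost it and 0 changed direction. All 54 kept it under the block, under edgeR and with size factors from shorter peaks, and 23 lost it with the 5 Mb median removed. Over the domains covered by the naming rule the block lost 0 calls and added 11, 4 and 8 in the 3 contrasts. Other scalings (TMM, shorter peaks, 10 counts) moved the median of the domains by -0.08 to 0.06 on the log2 scale. The depth of BrM2 replicate 2 (1994996 counts) limits what could be called for weakly marked domains.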
